A study of Caenorhabditis elegans with 12 samples.

Results

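The proteasome subunit genes of *C. elegans* were followed in mid-embryos of wild type and of mutants in *set-2*, which encodes a methyltransferase of H3K4. The genes were chosen by name: every row of the count tables named *pas*, *pbs*, *rpt* or *rpn* with a number was taken, which gave 32 of 45410 rows. The core particle held 14 of them, 7 *pas* genes of its alpha ring and 7 *pbs* genes of its beta ring, and the regulatory particle held 18, 6 *rpt* ATPase genes and 12 *rpn* non-ATPase genes. RNA was sequenced from 12 libraries in 2 experiments, with 3 libraries of wild type (N2) and 3 of *set-2(tm1630)* in experiment 1, and 3 of wild type and 3 of *set-2(zr2012)* in experiment 2. In *tm1630* the start codon of *set-2* is lost through a deletion in the 5′ part of the gene, whereas *zr2012* changes 1 amino acid of the SET domain. It was made with CRISPR in *pha-1(e2123)* animals in which *pha-1* was repaired for selection, and it was backcrossed fewer times than *tm1630*. All animals were kept at 20°C, and eggs from bleached adults were held for 4 h, by which time most were at comma stage. Comparisons were made between each mutant and the wild-type libraries prepared beside it, and the core and regulatory particles were described apart.

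The proteasome is the protease that degrades proteins marked with ubiquitin. Its core particle is a barrel of stacked rings, in which the outer alpha rings form the gate and the inner beta rings carry the proteolytic sites. The regulatory particle caps the barrel: its ATPases form a ring that unfolds the substrate and threads it through the gate, and its non-ATPase subunits bind, deubiquitinate and position the substrate. The subunits assemble in fixed proportions, and in yeast, worms and mammals their genes are known to be transcribed together, in worms through the factor SKN-1A when proteasome function is impaired. The gene *rpn-6.1* and its paralog *rpn-6.2* encode a lid subunit that is known for its link to stress resistance in worms.

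Library totals ran from 14651380 to 53080992 counts. Levels are given below as CPM, in the order of replicates 1, 2 and 3. These are the counts after each library was brought to the same size by TMM scaling within its experiment. Changes are given as the log2 fold change of mutant over wild type with an approximate standard error (SE). The SE was computed as the absolute log2 fold change divided by the square root of F from edgeR's quasi-likelihood test, which reports no SE itself. Adjusted p is that of the same test after Benjamini-Hochberg adjustment over all genes tested, and a gene is called upregulated or downregulated where it is under 0.05. The targeted gene did not check the labels: *set-2* stood at 0.0458 to 0.813 CPM in wild type and at 0.810 to 3.09 CPM in those labelled *set-2(tm1630)*, and its log2 fold change was 2.48 (adjusted p = 0.0589). In the libraries labelled *set-2(zr2012)*, in which no part of the gene is deleted, the log2 fold change of *set-2* was 0.04. The names of both alleles below are those of the labels. In experiment 2, replicate 3 of wild type stood apart from replicates 1 and 2, which were close to each other. Their Pearson r of log2 CPM was 0.998, against 0.973 and 0.974 with replicate 3. Replicates 1 and 2 differed by more than sampling noise and were kept as 2 libraries. Such a difference does not show separate preparations, which rest on the study's description. The wild-type libraries of experiment 1 were less alike than those of experiment 2, with r from 0.945 to 0.964. A list of 23 maternal and early embryo markers summed to 61.4, 81.5 and 166 CPM in wild type of experiment 1, to 1339, 1066 and 1241 CPM in *set-2(tm1630)*, to 159, 172 and 761 CPM in wild type of experiment 2, and to 204, 207 and 180.4 CPM in *set-2(zr2012)*. The markers *mex-3* and *pie-1* were listed at 0 in all 12 libraries. Whole embryos were sequenced, so that fewer cells of a type and less RNA per cell cannot be told apart.

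Of the 32 genes, 28 had counts and passed the filter on low counts in both experiments. The other 4 were listed at 0 in all 12 libraries: *rpn-2*, the gene of a large scaffold subunit, *rpt-4*, an ATPase gene, and the paralogs *rpn-6.1* and *rpn-6.2*. A 0 here was not read as a measure of expression, since *uba-1*, the gene of the ubiquitin-activating enzyme that embryos need, was also listed at 0 everywhere. So were 1911 of 19129 protein-coding RefSeq genes with a row (9.99%), among which silent genes were not told apart from uncounted ones. No value can thus be given for the paralog pair. Of the 28 genes with counts, 9 overlap another protein-coding gene in the RefSeq annotation, namely *pas-7*, *pbs-3*, *pbs-4*, *pbs-7*, *rpt-2*, *rpt-6*, *rpn-7*, *rpn-10* and *rpn-11*. Whether reads were counted by strand is not given in the sources used here, and reads of these genes cannot be told apart from those of a partner on the other strand. The choice by name missed the ubiquitin receptor gene *rpn-13*, which is filed under its sequence name C56G2.7. The 32 genes are spread over the autosomes, with 10 on chromosome I, 7 on II, 7 on III, 3 on IV and 5 on V by the WBcel235 annotation.

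**Figure D1:**
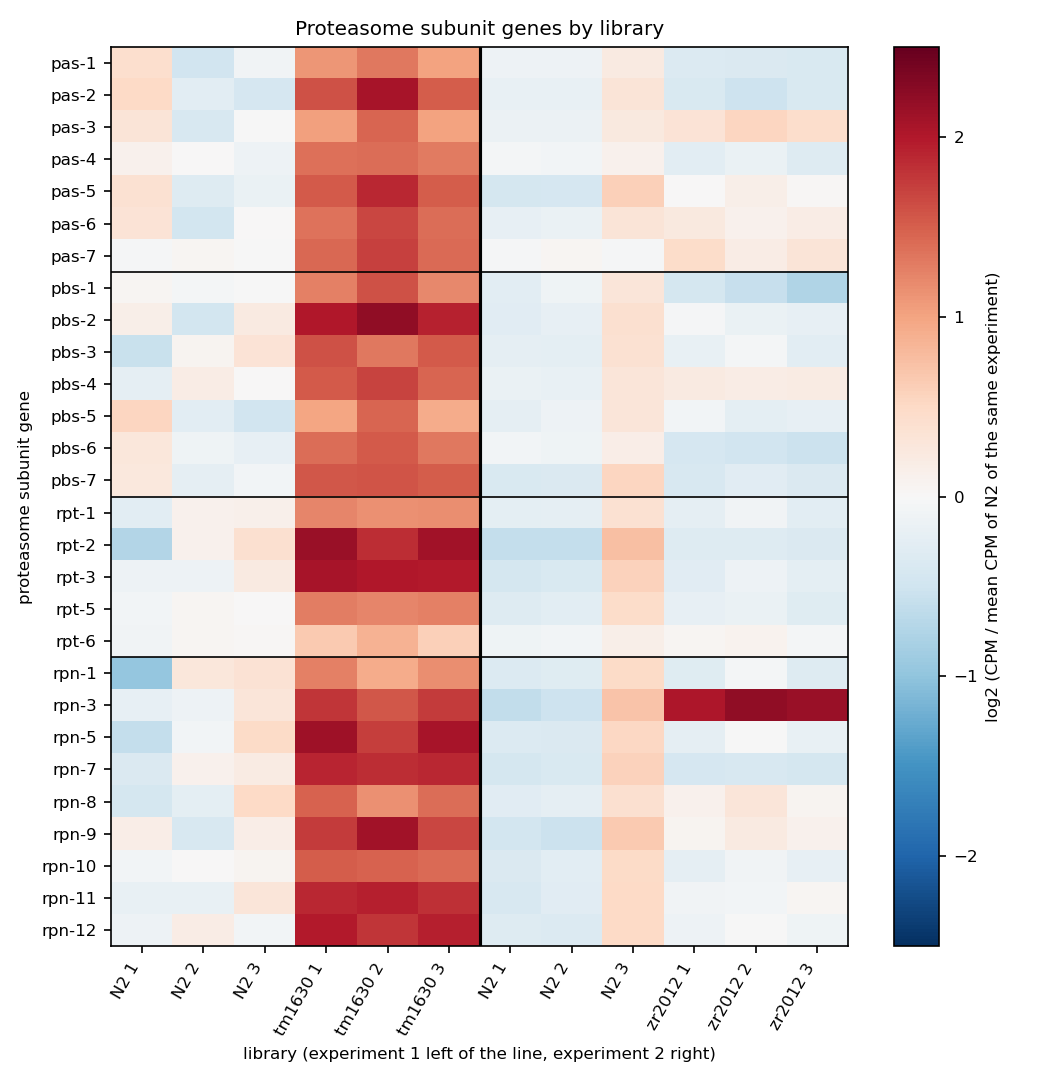
Level of each of the 28 proteasome subunit genes with counts (rows, grouped into alpha ring, beta ring, ATPases and non-ATPases) in each of the 12 libraries (columns), as log2 of its CPM over the mean CPM of the 3 wild-type libraries of the same experiment. All 28 rows are higher in the *set-2(tm1630)* libraries than in their wild type, whereas in *set-2(zr2012)* only *rpn-3* is past the test's threshold, and replicate 3 of wild type in experiment 2 is the higher wild-type library for most rows.

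In *set-2(tm1630)* embryos, proteasome subunit genes were higher throughout. The test across all genes called 25 of the 28 upregulated and 0 downregulated, against 14.4% of all 16332 genes tested called upregulated and 16% downregulated (30.4% in either direction). The upregulated genes were 13 of 14 of the core particle and 12 of 14 of the regulatory particle. The median log2 fold change was 1.49 for the core and 1.77 for the regulatory particle, against -0.21 for all genes tested. In all 28 genes the 3 mutant libraries were above the 3 wild-type libraries, as they were in 25.8% of all genes, and in 0 of the 28 they were below them, against 24.6% of all genes.

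All 7 alpha-ring genes were upregulated in *set-2(tm1630)*, with a median log2 fold change of 1.49. The highest was *pas-2*, which stood at 111, 64.7 and 58.3 CPM in the wild-type libraries and at 235, 325 and 222 CPM in the mutant libraries (log2 fold change 1.74, SE 0.37, adjusted p = 0.0136). The lowest was *pas-1*, at 76.2, 40.8 and 53.5 CPM in wild type and 123, 141 and 113 CPM in the mutant (log2 fold change 1.15, SE 0.32, adjusted p = 0.0307). Wild-type replicate 1 was the highest wild-type library for both, without reaching the mutant range. *pas-3* went from 159.6, 97.7 and 128 CPM to 260.5, 354 and 257 CPM, a log2 fold change of 1.18. *pas-4*, whose wild-type libraries lay close together, went from 54.8, 50.6 and 46.3 CPM to 132, 133 and 124 CPM, a log2 fold change of 1.36. *pas-5* had 159.5, 97.3 and 109 CPM in wild type and 355, 449 and 347 CPM in the mutant, with a log2 fold change of 1.65, and its mutant replicate 2 was the highest library. The same mutant library was the highest for *pas-6*, which had 73.7, 41.9 and 58.1 CPM in wild type and 149, 185 and 153 CPM in the mutant, with a log2 fold change of 1.49. *pas-7* rose from 40.5, 42.9 and 41.2 CPM to 113, 136 and 110.1 CPM, a log2 fold change of 1.53 with the smallest adjusted p of the alpha genes (0.00813).

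Of the 7 beta-ring genes, 6 were upregulated, with a median log2 fold change of 1.49 over the 7. Catalytic sites sit on the products of *pbs-1*, *pbs-2* and *pbs-5*, and the log2 fold changes of these 3 ran from 1.15 to 2.05, a difference that was not tested. *pbs-2*, the gene of the trypsin-like subunit, had the largest log2 fold change of all 28 genes, from 70.2, 46.2 and 75.1 CPM in wild type to 254, 296 and 243 CPM in the mutant (2.05, SE 0.32, adjusted p = 0.00625). *pbs-1*, which encodes the caspase-like subunit, went from 80.6, 75.2 and 76.9 CPM to 186, 234 and 179 CPM, with a log2 fold change of 1.36. *pbs-5*, the gene of the chymotrypsin-like subunit, missed the threshold: its values were 264, 151 and 130.2 CPM in wild type and 361, 502 and 345 CPM in the mutant (log2 fold change 1.15, SE 0.38, adjusted p = 0.0531). The groups did not overlap for *pbs-5*, but its wild-type replicate 1 was far above the other wild-type libraries. The remaining beta genes encode subunits without a catalytic site. Among them, *pbs-3* was at 37.3, 57.8 and 69.5 CPM in wild type and at 166, 137 and 159 CPM in the mutant (log2 fold change 1.49), and here wild-type replicate 1 was the lowest library. *pbs-4* had 57.0, 75.7 and 67.2 CPM against 194, 216 and 183 CPM in the mutant, with a log2 fold change of 1.57. The values of *pbs-6* were 72.3, 55.3 and 51.6 CPM and 158, 172 and 149 CPM, and its log2 fold change was 1.42. *pbs-7* was at 111, 78.6 and 87.9 CPM in wild type and 271, 275 and 265 CPM in the mutant, with a log2 fold change of 1.55 and mutant libraries that were close to each other.

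The ATPase genes covered the widest range of the 4 groups. Of 5 tested, 4 were upregulated, with a median log2 fold change of 1.26. *rpt-2* rose from 49.3, 88.7 and 109 CPM to 366, 294 and 353 CPM (log2 fold change 2.04, SE 0.38, adjusted p = 0.00981), and *rpt-3* from 70.8, 70.5 and 89.6 CPM to 321, 309.8 and 302 CPM (log2 fold change 2.01). In yeast the tails of Rpt2, Rpt3 and Rpt5 dock onto the alpha ring and open its gate. *rpt-5* rose from 79.4, 85.9 and 83.2 CPM to 202, 194 and 198 CPM, with a log2 fold change of 1.26. *rpt-1* had 65.8, 84.7 and 85.9 CPM in wild type and 183, 174 and 177 CPM in the mutant, with a log2 fold change of 1.17. *rpt-6* had the smallest log2 fold change of the 28 genes and missed the threshold, with 149, 162 and 161 CPM in wild type and 247, 286 and 237 CPM in the mutant (log2 fold change 0.71, SE 0.28, adjusted p = 0.0857). Its groups did not overlap. Whether the ATPase genes differed among themselves was not tested.

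Of the 9 non-ATPase genes tested, 8 were upregulated, with a median log2 fold change of 1.85. The lid of the regulatory particle, which carries the deubiquitinase, was represented by *rpn-3*, *rpn-5*, *rpn-7*, *rpn-8*, *rpn-9*, *rpn-11* and *rpn-12*. The highest was *rpn-5*, from 44.9, 64.6 and 94.4 CPM to 293, 225 and 283 CPM (log2 fold change 1.97, SE 0.36, adjusted p = 0.00978). *rpn-12* had the smallest adjusted p of the 28 genes (0.00515), with 42.9, 53.3 and 45 CPM in wild type and 185, 162 and 182 CPM in the mutant and a log2 fold change of 1.91. *rpn-11*, the gene of the deubiquitinase itself, went from 75.9, 76.7 and 108 CPM to 322, 336 and 308 CPM, a log2 fold change of 1.89. Its partner *rpn-8* rose from 59.9, 68.5 and 115 CPM to 224, 180.0 and 214 CPM, with a log2 fold change of 1.35. *rpn-7* had 71.3, 99.2 and 105 CPM in wild type and 344, 329 and 339.7 CPM in the mutant, with a log2 fold change of 1.87. *rpn-9*, for which mutant replicate 2 was the highest library, had 114, 77.6 and 115 CPM and 342, 439 and 326 CPM, a log2 fold change of 1.85. *rpn-3* moved with the others here, from 115, 122 and 164 CPM to 465, 390.4 and 448 CPM (log2 fold change 1.70, SE 0.32, adjusted p = 0.0100). *rpn-10* encodes a ubiquitin receptor and was at 105, 111 and 115 CPM in wild type and 315, 306 and 294 CPM in the mutant, with a log2 fold change of 1.47. *rpn-1*, the gene of a scaffold subunit that docks shuttle factors, missed the threshold, with 58.7, 139 and 147 CPM in wild type and 276, 218 and 258 CPM in the mutant (log2 fold change 1.13, SE 0.40, adjusted p = 0.0625). Its groups did not overlap, and wild-type replicate 1 was well below the other wild-type libraries. The receptor gene *rpn-13*, which the choice by name left out, went from 80.6, 111 and 125 CPM to 286, 276 and 276 CPM (row C56G2.7, log2 fold change 1.40, adjusted p = 0.0150), whereas *dss-1*, the gene of a small lid protein, did not pass the test (log2 fold change 0.27, adjusted p = 0.552).

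**Figure D2:**
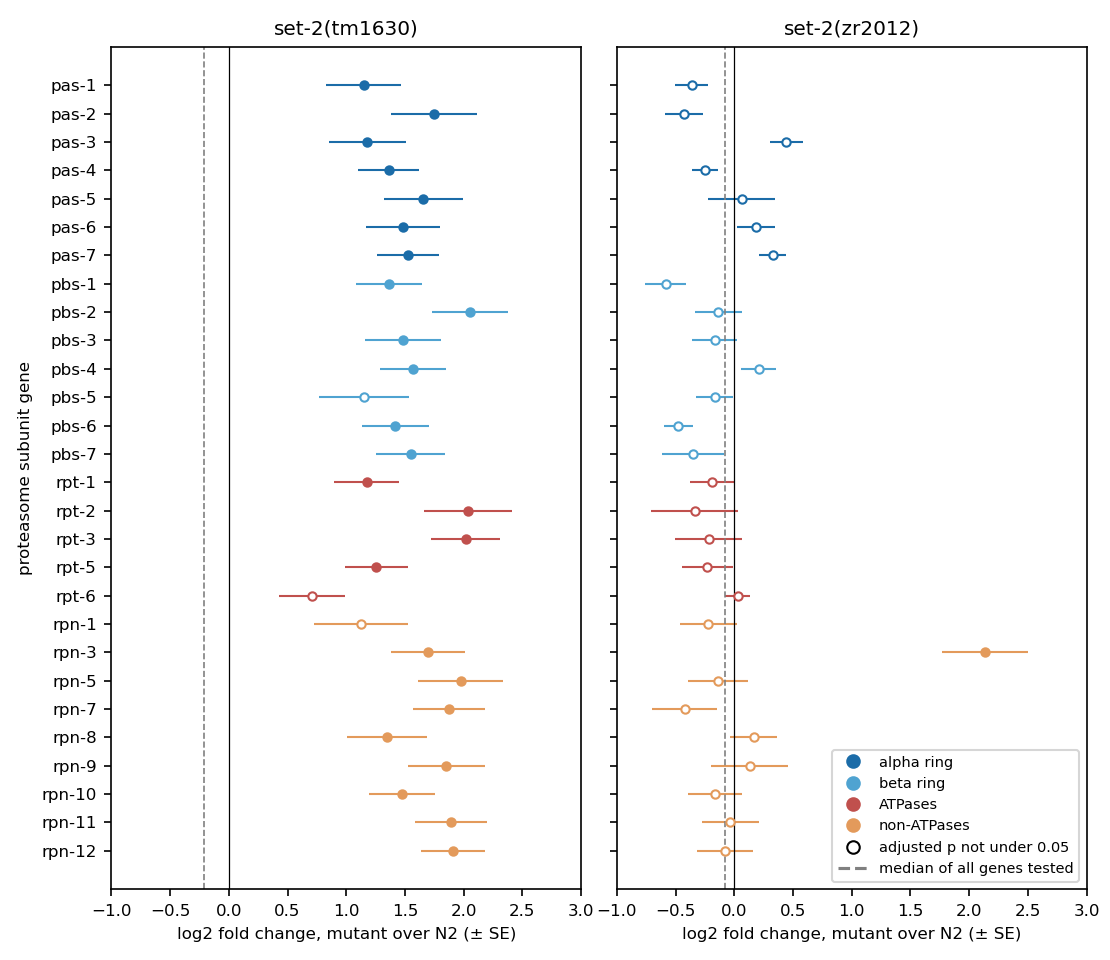
Log2 fold change (mutant over wild type of the same experiment, bars ± SE, n = 3 libraries per group) of the 28 proteasome subunit genes in *set-2(tm1630)* (left) and *set-2(zr2012)* (right); open symbols did not pass an adjusted p of 0.05 and the dashed line is the median of all genes tested. On the left the points lie between 0.71 and 2.05 and 25 of 28 are filled, whereas on the right 27 lie between -0.59 and 0.44 and are open, and *rpn-3* stands alone at 2.13.

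The number of calls in *set-2(tm1630)* fell most when a mutant library was left out, and the reason was not tested. Leaving out mutant replicate 1, 2 or 3 gave 10, 11 and 10 of the 28 upregulated (4.75%, 5.85% and 5.81% of all genes were then called in either direction), and leaving out wild-type replicate 1, 2 or 3 gave 27, 22 and 27 (30.9%, 18.5% and 49.8% of all genes). In these fits *rpn-3* missed the threshold without mutant replicate 1 (adjusted p = 0.0573) and without mutant replicate 3 (0.0556). The maternal and early embryo markers moved in the same comparison. Of the 19 tested, 14 were upregulated, against 14.4% of all genes. They were led by *puf-11* (log2 fold change 3.48), *oma-2* (3.66) and *puf-3* (3.04), the latter a close paralog of *puf-11* with which it may share reads. None (0) were downregulated, and the summed level ran from 61.4 to 166 CPM in wild type and from 1066 to 1339 CPM in the mutant. The tissue markers that were called were lower in the mutant. Downregulated were 5 of 9 muscle genes tested (*unc-89*, -2.12, *unc-54*, -1.54, and *unc-22*, -1.87, led by adjusted p), 5 of 10 neuronal genes (*unc-13*, -1.80, *snt-1*, -1.83, and *unc-104*, -1.86) and 3 of 8 intestinal genes (*cpr-6*, -2.01, *ges-1*, -1.52, and *pept-1*, -2.06), against 16% of all genes. Of 9 epidermal genes 1 was downregulated, a share no higher than that over all genes. It was *dpy-13* (-1.24), with mean levels of only 5.37 CPM in wild type and 2.28 CPM in the mutant. The part of embryonic stage in the proteasome result was not tested.

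In *set-2(zr2012)* embryos the same genes did not pass the test, with 1 exception. Of the 28, only *rpn-3* was upregulated and 0 were downregulated, against 5.71% of all 16892 genes tested called upregulated and 4.74% downregulated (10.4% in either direction). This is a share of calls no higher than that over all genes. The median log2 fold change was -0.17 for the core and -0.15 for the regulatory particle, against -0.08 for all genes. Without wild-type replicate 3 these medians were above 0, at 0.046 and 0.21. An unadjusted p under 0.05 was reached by 7 of the 28 genes, 6 of them in the core, and by 5129 of all genes. The mutant libraries were above all wild-type libraries in 3 genes (*pas-3*, *pas-7* and *rpn-3*), against 18.9% of all genes, and below them in 5 (*pas-1*, *pas-2*, *pas-4*, *pbs-1* and *pbs-6*), against 18.1%. Neither share was higher than that over all genes.

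Within the alpha ring the log2 fold changes in *set-2(zr2012)* had either sign. The highest was that of *pas-3*, with 71.3, 70.6 and 93.6 CPM in wild type and 99.9, 114 and 107 CPM in the mutant (0.44, SE 0.14, adjusted p = 0.0931), and the lowest that of *pas-2*, with 49.0, 48.5 and 69.1 CPM and 42.6, 38.7 and 42.6 CPM (-0.43, SE 0.17, adjusted p = 0.141). The products of both are used in equal number in the ring. *pas-1* had 31.7, 31.4 and 40.5 CPM in wild type and 27.1, 26.9 and 26.6 CPM in the mutant, with a log2 fold change of -0.36. *pas-4* was at 39.5, 39.2 and 44.5 CPM and 34.3, 36.4 and 32.7 CPM, a log2 fold change of -0.25. Both had mutant libraries just below the wild-type range. *pas-5* (63.5, 64.7 and 129.8 CPM against 86.9, 95.1 and 87.8 CPM, log2 fold change 0.06) and *pas-6* (38.4, 39.7 and 55.3 CPM against 52.9, 47.8 and 50.8 CPM, 0.18) overlapped, with wild-type replicate 3 as the highest library. *pas-7* was the only alpha gene in which replicate 3 was not the highest wild-type library, at 35.4, 37.6 and 35.4 CPM in wild type and 49.5, 41.1 and 45.3 CPM in the mutant, with a log2 fold change of 0.33.

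Among the beta genes, *pbs-1* had the lowest log2 fold change of all 28, with 52.8, 59.0 and 77.7 CPM in wild type and 46.5, 42.6 and 37.4 CPM in the mutant (-0.59, SE 0.17, adjusted p = 0.0799). *pbs-6* was nearest to the threshold, with 37.4, 36.2 and 44.1 CPM and 29.4, 28.2 and 26.9 CPM (-0.48, SE 0.12, adjusted p = 0.0572). In both genes the groups did not overlap. The other catalytic subunit genes were close to the wild-type libraries. *pbs-2* was at 36.5, 38.8 and 58.7 CPM in wild type and 43.8, 39.7 and 38.6 CPM in the mutant (log2 fold change -0.14), and *pbs-5*, with groups that overlapped, at 80.3, 86.3 and 115 CPM and 89.3, 79.8 and 82.1 CPM (-0.17). *pbs-3* had 44.0, 43.0 and 66.5 CPM and 44.8, 49.2 and 42.6 CPM, a log2 fold change of -0.17. *pbs-4* was the only beta gene with a positive log2 fold change (0.21), at 56.1, 55.5 and 77.1 CPM in wild type and 74.0, 71.6 and 72.5 CPM in the mutant. For *pbs-7*, at 51.6, 52.4 and 98.4 CPM and 51.3, 55.1 and 52.2 CPM, the log2 fold change of -0.35 came with a wild-type replicate 3 that was well above the other wild-type libraries, which the mutant libraries overlapped.

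The regulatory particle genes other than *rpn-3* all had groups that overlapped in *set-2(zr2012)*, and their log2 fold changes ran from -0.42 to 0.16. Of the ATPase genes, *rpt-6* was the highest, with 98.0, 100.2 and 117 CPM in wild type and 109, 111 and 102 CPM in the mutant (0.03, SE 0.11), and *rpt-2* the lowest, with 60.6, 60.7 and 153 CPM and 73.5, 73.0 and 70.7 CPM (-0.34, SE 0.37). Replicate 3 of wild type was the library that set *rpt-2* apart. *rpt-1* had 57.3, 58.0 and 89 CPM in wild type and 58.6, 63.9 and 56.8 CPM in the mutant (-0.19). *rpt-3* had 48.5, 50.1 and 98.4 CPM and 54.3, 59.8 and 55.4 CPM (-0.22), and *rpt-5* had 53.1, 55.5 and 91.4 CPM and 57.6, 59.1 and 54.2 CPM (-0.23). In each of the 3 the mutant lay between wild-type replicate 3 and the other wild-type libraries or level with the latter. Of the non-ATPase genes, *rpn-7* was the lowest, with 62.0, 64.9 and 126 CPM and 63.0, 63.9 and 61.7 CPM (-0.42, SE 0.28). The scaffold gene *rpn-1* was at 85.0, 87.6 and 150.4 CPM in wild type and 87.7, 103.6 and 86.2 CPM in the mutant (-0.22). The deubiquitinase gene *rpn-11* was at 49.3, 53.2 and 92.1 CPM and 61.4, 62.3 and 66.7 CPM (-0.03), and its partner *rpn-8* at 51.4, 53.5 and 81.9 CPM and 67.2, 77.1 and 65.2 CPM (0.16). Both of these subunit genes had mutant libraries inside the wild-type range. *rpn-5* had 44.6, 44.2 and 81.5 CPM in wild type and 48.7, 56.4 and 49.9 CPM in the mutant (-0.14), and *rpn-12* had 33.7, 33.4 and 59.5 CPM and 38.9, 42.2 and 38.9 CPM (-0.08). *rpn-9* was at 47.5, 44.9 and 103 CPM and 68.0, 76.5 and 70.2 CPM (0.13). The receptor gene *rpn-10* was at 68.8, 73.2 and 123 CPM and 75.9, 83.2 and 76.9 CPM (-0.17), and the other receptor gene, *rpn-13*, which was not chosen by name, at 72.8, 72.0 and 120.1 CPM and 102, 115 and 100.2 CPM (row C56G2.7, 0.26, adjusted p = 0.446).

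Leaving out replicate 3 of wild type changed this comparison the most of the 6 libraries. In that library the median gene stood above the wild-type mean by 0.30 on the log2 scale for the core particle (range -0.03 to 0.59) and by 0.50 for the regulatory particle (range 0.16 to 0.74), and the maternal and early embryo markers summed to 761 CPM, against 159 and 172 CPM in replicates 1 and 2. Without it, 13 of the 28 genes were upregulated, 5 of the core and 8 of the regulatory particle, and 5, all of the core, were downregulated. In that fit 63.2% of all genes were called, and its spread in wild type rested on replicates 1 and 2 alone. Of the maternal and early embryo markers, 0 of 20 were called in *set-2(zr2012)* with all libraries, in either direction (2 had an unadjusted p under 0.05), and the summed level was 180.4 to 207 CPM in the mutant. Over all genes, 5.71% were called upregulated and 4.74% downregulated in this comparison with all libraries. Of the tissue markers, the epidermal gene *lin-26* was downregulated (-1.42, adjusted p = 0.00578, 1 of 10) and the neuronal gene *unc-13* upregulated (0.64, 0.0278, 1 of 10). Of the muscle and intestinal genes 0 of 9 and 0 of 8 were called, with 2 and 1 at an unadjusted p under 0.05. The part of replicate 3 and of embryonic stage in these values was not tested further.

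The exception, *rpn-3*, encodes a lid subunit that helps to hold the lid together. It had 67.5, 72.2 and 169 CPM in wild type and 418, 481 and 457 CPM in *set-2(zr2012)* (log2 fold change 2.13, SE 0.37, adjusted p = 0.0225). The mutant libraries lay close together and far above the highest wild-type library. Counted by log2 fold change, *rpn-3* was at rank 197 of 16892 genes tested and at rank 171 of the 965 upregulated genes. In an exact permutation test of the 6 values (two-sided, n = 3 per group) its p was 0.1, the smallest this design can give, in either allele. Any gene whose groups do not overlap gets this value, so the test cannot single out *rpn-3*. The call was lost in 5 of the 6 fits that left out a library, with adjusted p between 0.0748 and 0.115 and a log2 fold change between 1.90 and 2.21. These 5 fits called between 0.175% and 0.928% of all genes in either direction, against 10.4% with all libraries. The call was kept without wild-type replicate 3 (2.69, adjusted p = 8.48e-10), where 63.2% of all genes were called. It was also lost with the replicate number as a block (2.27, adjusted p = 0.0712), a fit that called 0.237% of all genes.

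Set against the median of the 13 other regulatory genes in the same library, *rpn-3* was 1.63, 1.44 and 1.52 times as high in wild type of experiment 1 and 1.58, 1.36 and 1.58 times in *set-2(tm1630)*. The ranges of both groups of experiment 1 overlapped. In wild type of experiment 2 it was 1.27, 1.30 and 1.72, and in *set-2(zr2012)* it was 6.64, 7.53 and 7.02. These are ratios of CPM that are not corrected for gene length, so only the change of the ratio between libraries can be read. Of all counts on the 14 regulatory genes, *rpn-3* took 8.16% to 11.01% in wild type of experiment 2 and 32.6% to 34.9% in *set-2(zr2012)*.

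**Figure D3:**
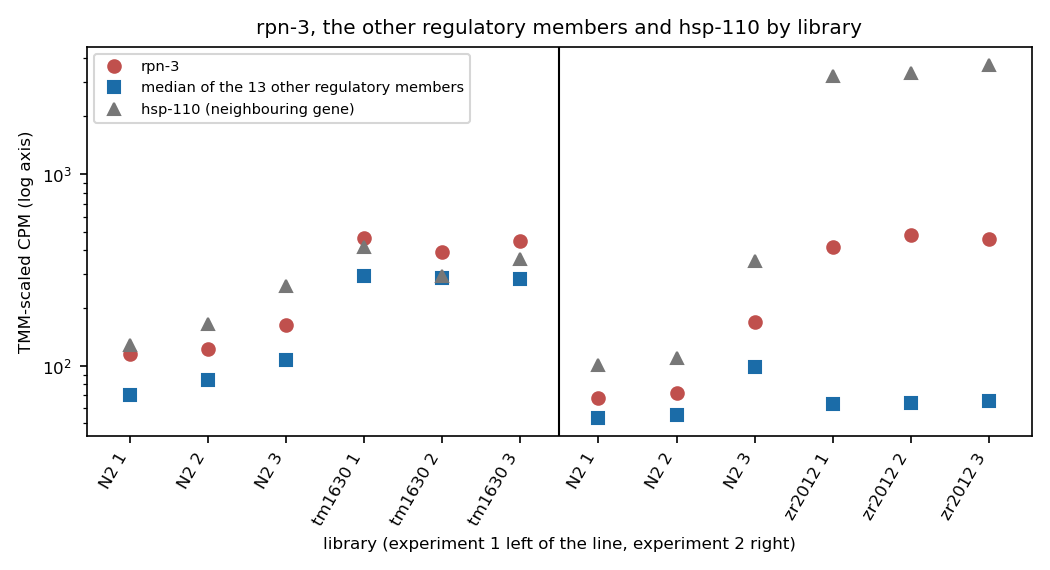
TMM-scaled CPM on a log axis in each library for *rpn-3* (circles), the median of the 13 other regulatory particle genes (squares) and the neighbouring chaperone gene *hsp-110* (triangles). Circles and squares move up together in *set-2(tm1630)*, whereas in *set-2(zr2012)* the circles reach 418 to 481 CPM with the squares at 63.0 to 65.2 CPM, and the triangles reach 3253 to 3713 CPM.

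The genes around *rpn-3* on chromosome III were looked at after its values had been seen. Of the 5 protein-coding genes on each side in RefSeq order, 9 of 10 were tested and 1, *ufbp-1*, was listed at 0. The next gene on one side is *hsp-110* (row C30C11.4), which encodes a chaperone of the Hsp110 family. It had 101, 109 and 352 CPM in wild type and 3253, 3371 and 3713 CPM in *set-2(zr2012)* (log2 fold change 4.2, SE 0.55, adjusted p = 0.0117), the largest change of the neighbours. The next gene on the other side, *mrpl-32*, encodes a mitochondrial ribosomal protein. It rose from 32.7, 32.7 and 47.1 CPM to 78.6, 84.6 and 78.7 CPM (log2 fold change 1.10, SE 0.17, adjusted p = 0.0172). After it came *mig-39*, also upregulated (0.50, adjusted p = 0.0484). The others were not called, with log2 fold changes from -0.22 for *ess-2* to 0.72 for F42H10.6, and the gene beyond *hsp-110* with counts, *pqn-96*, was at 0.14. In *set-2(tm1630)* the neighbours next to *rpn-3* were not called: *hsp-110* had a log2 fold change of 0.96 (adjusted p = 0.0793) and *mrpl-32* of 0.14 (0.685). Farther out, *mig-39* was downregulated (-1.72, 0.0147), and ZK1236.9 (2.51, 0.00424) and *ess-2* (1.56, 0.0194) were upregulated. Whether *rpn-3* shares a transcript or a regulatory element with its neighbours, or was assigned reads of their transcripts, was not tested.

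**Figure D4:**
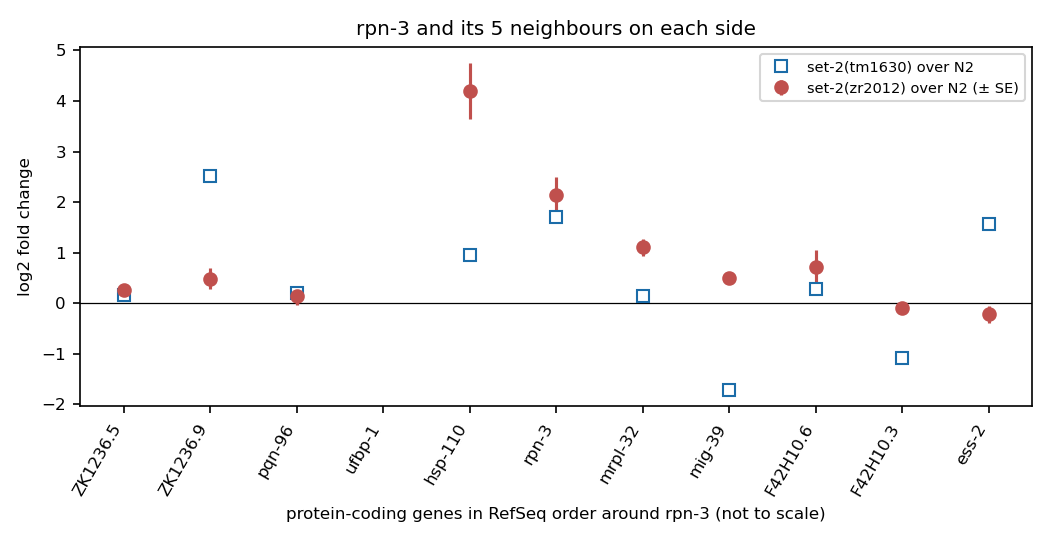
Log2 fold change over wild type of *rpn-3* and of the 5 protein-coding genes on each side of it, in RefSeq order and not to scale, in *set-2(zr2012)* (circles, ± SE) and *set-2(tm1630)* (squares). In *set-2(zr2012)* the values peak at *hsp-110* (4.2), with *rpn-3* at 2.13 and *mrpl-32* at 1.10, and *ufbp-1* has no point because it was listed at 0.

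The alleles were compared through an interaction term in a fit of the 12 libraries, which gives the log2 fold change in *set-2(zr2012)* minus that in *set-2(tm1630)*. It was negative and past the threshold for 24 of the 28 genes, 13 of the core and 11 of the regulatory particle, and positive for 0. Of all 17903 genes tested, 11.8% were past the threshold with a negative and 11.7% with a positive difference (23.4% in either direction). The median difference was -1.61 for the core and -1.69 for the regulatory particle, against 0.17 for all genes. The largest differences were those of *rpt-2* (-2.38, SE 0.52), *rpn-7* (-2.30, SE 0.39) and *rpt-3* (-2.24, SE 0.38). *pas-3* (-0.75, adjusted p = 0.118), *rpt-6* (-0.69, 0.0754) and *rpn-1* (-1.35, 0.0560) missed the threshold with a negative difference. *rpn-3* was the only gene with a positive difference, 0.43 (SE 0.46, adjusted p = 0.514), and it was thus not shown to differ between the alleles. Leaving out 1 library at a time gave between 21 and 26 of the 28 past the threshold, in fits that called between 13.3% and 41.1% of all genes in either direction. Without replicate 3 of wild type in experiment 2, the difference of *rpn-3* was 0.97 (adjusted p = 0.0530). The alleles were studied in different experiments, each with its own wild type, so that allele and experiment cannot be told apart.

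The balance of core and regulatory particle transcripts was followed as the ratio of their summed CPM, which does not depend on how the libraries are scaled. The core summed to 1367, 976 and 1053 CPM in wild type of experiment 1 and to 2955, 3554 and 2850.4 CPM in *set-2(tm1630)*, and the 14 regulatory genes to 1101, 1303 and 1535 CPM and to 4085, 3843 and 3919 CPM. Both particles were thus above the wild-type range in every mutant library. The ratio of core to regulatory was 1.24, 0.749 and 0.686 in wild type and 0.724, 0.925 and 0.727 in *set-2(tm1630)*, and these ranges overlapped, with wild-type replicate 1 apart from the others. In experiment 2 the core summed to 688, 703 and 1006 CPM in wild type and to 772, 766 and 745 CPM in *set-2(zr2012)*, and the regulatory genes to 827, 852 and 1535 CPM and to 1282, 1413 and 1312 CPM. The ratio was 0.831, 0.825 and 0.656 in wild type and 0.602, 0.542 and 0.568 in the mutant, so that the mutant libraries were below the wild-type ones. Without *rpn-3* it was 0.905, 0.902 and 0.737 in wild type and 0.894, 0.822 and 0.872 in the mutant, and the groups overlapped.

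**Figure D5:**
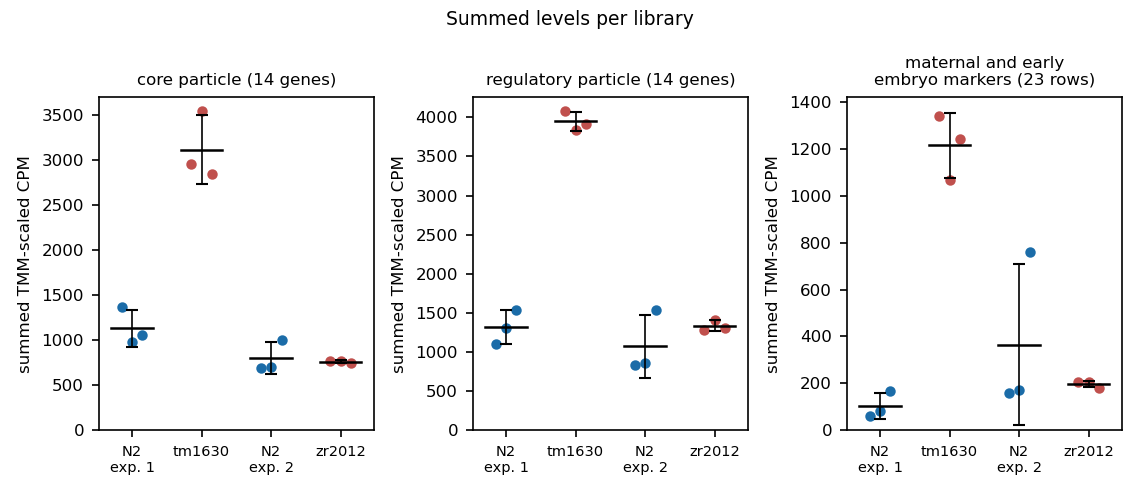
Summed CPM per library (points) of the 14 core genes, of the 14 regulatory genes with counts and of the 23 maternal and early embryo markers, by group, with the mean and SD of 3 libraries as lines and bars. *set-2(tm1630)* is above its wild type in all 3 panels (2850.4 to 3554, 3843 to 4085 and 1066 to 1339 CPM), and in experiment 2 the highest point of each wild-type group is replicate 3.

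Genes that work with the proteasome were taken from lists of known function. In *set-2(tm1630)*, where 14.4% of all genes were called upregulated and 16% downregulated, 3 of 6 proteasome-associated factors tested were upregulated: *usp-14* (log2 fold change 2.28, adjusted p = 0.00453) and *ubh-4* (1.99, 0.0192), which encode deubiquitinases that sit on the regulatory particle, and *psme-3* (row Y66D12A.9, 1.23, 0.0238), which encodes an alternative cap of the core particle. Of 12 genes of the segregase CDC-48 and of ubiquitin shuttle factors, which bring substrates to the proteasome, 10 were upregulated and 0 downregulated, with a median of 1.22. They were led by *ufd-3* (1.78, 0.00866), *ubxn-6* (1.71, 0.0103) and *npl-4.1* (1.39, 0.0207). The like-named *npl-4.2* is also among the 10, with mean wild-type levels of 13.4 CPM for *npl-4.1* and 13.6 CPM for *npl-4.2*. How reads were split between them is uncertain. Cullin ligase and NEDD8 pathway genes followed with 8 of 21 upregulated and 0 downregulated, among them the SCF adaptor gene *skr-2* (2.53, 0.00327), the cullin gene *cul-6* (2.90, 0.00803) and the signalosome gene *csn-3* (1.16, 0.0172), with a median of 0.84. The anaphase-promoting complex had 1 of 11, its activator gene *fzy-1* (2.50, 0.0120), with a median of 0.96, a share of calls no higher than that over all genes.

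Ubiquitin, E1 and E2 genes had 2 of 19 upregulated and 2 downregulated in *set-2(tm1630)*, shares near those over all genes (14.4% and 16%), with a median of -0.03, and named by adjusted p these were *ubc-8* (-1.22, 0.0213), *ubc-7* (1.17, 0.0221) and *ubc-17* (-1.47, 0.0304). Of the 7 regulators of proteasome gene expression and SKN-1A activation, 2 were upregulated, *aip-1* (1.35, 0.0269), which encodes a protein that binds the proteasome under arsenite, and *ddi-1* (row C01G5.6, 1.18, 0.0319), the gene of the protease that cleaves SKN-1A. *skn-1* itself was listed with at most 70 counts in any library, and its log2 fold change did not pass the test (-1.45, adjusted p = 0.0970). Of the 5 genes of the chaperonin CCT tested, 0 were called and 0 had an unadjusted p under 0.05, with a median of 0.56. The CCT list still summed higher in every mutant library, at 2132 to 2210 CPM against 1390 to 1733 CPM in wild type, a difference that was not tested. Cytosolic ribosomal protein genes, which encode another large complex, had 0 of 67 called in either direction and 0 at an unadjusted p under 0.05, with a median of -0.65. A list of heat-inducible chaperone genes and *gst-4* had 4 genes tested. The 3 chaperone genes were upregulated, led by *hsp-70* (3.70, 0.00538) and *hsp-16.2* (4.40, 0.0119), and *gst-4* was downregulated (-1.61, 0.0127). The *hsp-16* genes are close paralogs, and how reads were split among them is uncertain.

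In *set-2(zr2012)* few genes of the lists around the proteasome were called, as 5.71% of all genes were upregulated and 4.74% downregulated. Of the proteasome-associated factors and of the CDC-48 and shuttle genes 0 of 6 and 0 of 12 were called, with 1 gene of each at an unadjusted p under 0.05 and medians of 0.09 and -0.31. Called were *ubc-13* among the E2 genes (0.44, adjusted p = 0.0470), *cul-1* among the cullin genes (-1.34, 0.0333), *apc-2* of the anaphase-promoting complex (-0.67, 0.0267) and, among the regulators, *aip-1* (1.70, 0.00378) and *png-1* (0.63, 0.0300), the gene of the glycanase that edits SKN-1A. *aip-1* was upregulated in both alleles. Heat-inducible chaperone genes moved most. Their list, which also holds *gst-4*, summed to 75.7, 76.1 and 255 CPM in wild type and to 18613, 20759.5 and 20133 CPM in the mutant. The chaperone genes *hsp-70* (8.01, adjusted p = 0.000789), *hsp-16.41* (7.35, 0.00863) and *hsp-16.2* (7.52, 0.00885) were upregulated, and *gst-4* was downregulated (-0.59, 0.0403). Genes of the chaperonin CCT rose as well, with 5 of 5 tested upregulated, among them *cct-2* (1.49, 0.00439), *cct-1* (0.84, 0.00749) and *cct-4* (0.86, 0.00885). The constitutive chaperone genes *hsp-1* (2.21, adjusted p = 0.00378) and *daf-21* (1.68, 0.00232), looked at after their values had been seen, were also upregulated, whereas *hsf-1*, the gene of the heat shock factor, was at -0.03. Both chaperone genes were also above wild type in every *set-2(tm1630)* library without passing the test (*hsp-1* 0.72, adjusted p = 0.173, *daf-21* 1.36, 0.0659). The difference between alleles was past the threshold for *hsp-1* (1.48, interaction adjusted p = 0.0188) but not for *daf-21* (0.30, 0.653). Of 67 ribosomal protein genes, 0 were upregulated and 1 was downregulated, *rpl-7A* (-0.46, 0.0279), with 6 at an unadjusted p under 0.05. The part of the heat-inducible genes' change in the change of *rpn-3* was not tested.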

How the data were processed

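RNA of mid-embryos was sequenced in 12 libraries, 3 per group in 4 groups. The authors mapped the reads to WS220 (ce10) with 2 mismatches allowed and deposited whole-number counts per gene without normalization. The submitters' processing notes name Trimmomatic 0.36.0, HTSeq 0.9.1 and DESeq2 2.1.8.3. Strand use in counting is not given in the sources used here.

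The analysis ran on R 4.3.3, and its packages were edgeR 4.0.16, DESeq2 1.42.0 and limma 3.58.1. Groups follow the sample titles. For each allele, genes that reached 10 counts in 3 or more of 6 libraries were scaled by TMM and tested across all genes with edgeR's quasi-likelihood test, without a block, two-sided, with Benjamini-Hochberg adjustment at 0.05. The difference between alleles was an interaction over 12 libraries. The scripts were tested on simulated counts. Alternatives were DESeq2 size factors, the DESeq2 Wald test, other count filters, a replicate block, all 12 libraries in one fit, and each replicate left out. The study used DESeq2 as its test, which is here an alternative.

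Subunit genes and lists were chosen with earlier results of these data known. Per-library values were given for subunit genes with the highest or lowest log2 fold change of their class or past the threshold of the interaction. Of each other list, up to 3 called genes per allele with the smallest adjusted p were named. Other genes were chosen after their values were seen. Counts of replicate pairs differed by more than sampling noise in every pair. The chi-square per degree of freedom ran from 2.34 (wild-type replicates 1 and 2 of experiment 2) to 889 (wild-type replicates 1 and 3 of experiment 1). PCR copies were not told apart from separate molecules. The p-values measure the spread between libraries that the study describes as 3 independent experiments per genotype. Levels per kilobase were not computed, because no exon lengths were used, so levels of different genes were not compared. Gene names not in the tables, chromosomes, gene order and overlaps between genes came from RefSeq (WBcel235), and no coordinates are printed, as the counts were made on another build.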

Additional observations from a re-analysis of the deposited data

Results flagged for a closer look

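The changes in both alleles were compared by a test of the difference itself (edgeR's interaction over 12 libraries), and 24 of the 28 subunit genes with counts passed it. Each value is the log2 fold change in *set-2(zr2012)* minus that in *set-2(tm1630)*, and all 24 are negative, with each allele measured in its own experiment. In the alpha ring it was -1.53 for *pas-1*, -2.19 for *pas-2*, -1.63 for *pas-4*, -1.60 for *pas-5*, -1.32 for *pas-6* and -1.22 for *pas-7*. In the beta ring it was -1.96 for *pbs-1*, -2.20 for *pbs-2*, -1.66 for *pbs-3*, -1.37 for *pbs-4*, -1.33 for *pbs-5*, -1.91 for *pbs-6* and -1.91 for *pbs-7*, so that all 7 beta genes passed. Among the ATPase genes it was -1.37 for *rpt-1*, -2.38 for *rpt-2*, -2.24 for *rpt-3* and -1.49 for *rpt-5*. Among the non-ATPase genes it was -2.12 for *rpn-5*, -2.30 for *rpn-7*, -1.19 for *rpn-8*, -1.73 for *rpn-9*, -1.65 for *rpn-10*, -1.93 for *rpn-11* and -2.0 for *rpn-12*. Groups of 3 libraries were not examined for single outlying libraries by this route.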

How the results depend on the processing

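For *set-2(tm1630)*, 4961 genes were DE, 8124 (45.4% of all genes) with all 12 libraries in one fit and 747 to 7857 with a replicate left out. Of the subunit genes, 26 were upregulated with DESeq2 size factors (29.7% of all genes called in either direction), 28 with the DESeq2 Wald test (38.9%) and with all 12 libraries in one fit, 22 when no gene was filtered out (21%), 26 when every library had to reach 10 counts (30.2%) and 21 with the replicate block (21.2%). With a replicate left out, 3 to 14 core and 7 to 14 regulatory genes were upregulated. The regulatory median of 1.77 was 1.84 with DESeq2 size factors and with the Wald test, 1.68 without a count filter and 1.65 to 1.87 with a replicate left out.

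For *set-2(zr2012)*, 1765 genes were DE, 3252 with the DESeq2 Wald test, 40 with the replicate block, 248 with all 12 libraries in one fit and 29 to 10468 with a replicate left out. The Wald test called 2 core genes downregulated. With a replicate left out, 0 to 5 core genes were upregulated and 0 to 5 downregulated, 0 to 8 regulatory genes were upregulated, and the medians ran from -0.27 to 0.046 for the core and from -0.30 to 0.21 for the regulatory particle. Without wild-type replicate 3 the sign turned and the call was gained for 5 genes. With a replicate left out these ran from -0.20 to 0.31 for *rpn-11*, from -0.23 to 0.25 for *rpn-12*, from -0.29 to 0.22 for *rpn-5*, from -0.57 to 0.26 for *rpt-2* and from -0.40 to 0.20 for *rpt-3*, with the upper value the one without that library. The cause was not tested. With the replicate block *rpn-3* missed the threshold (2.27, adjusted p = 0.0712), so that 0 regulatory genes were upregulated.

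The difference between the alleles was past the threshold for 4198 genes, 1858 with the replicate block and 2357 to 7293 with a replicate left out. The block gave 17 of the 28 subunit genes and 10.4% of all genes. The study prepared wild-type and mutant samples in parallel, and whether a number marks a shared preparation is not given in the sources used here. Correlations across genes, each gene centred within its group, were negative in 5 of the 6 same-numbered pairs and 0.111 in the other. Their mean was -0.174 in experiment 1 and -0.172 in experiment 2. The means of the other pairs (0.0898 and 0.0957) follow almost wholly from these through the centring and are no separate comparison. With 3 libraries per group, these values cannot decide whether the numbers pair the libraries, and the main tests had no block. The ratio of core to regulatory particle is the same on raw counts.

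Limits: 3 libraries per group, 1 wild-type library of experiment 2 apart from the others, and wild-type libraries of experiment 1 that were less alike still. Further limits are 4 subunit genes without counts, and allele and experiment that cannot be told apart.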
